A study of Mus musculus with 24 samples.

Results

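Spinal cord gene expression of mice labelled Act1 ko was compared between 4 recipients of Th17 cells and 5 naive mice, which are 9 of the 24 arrays of the study, with 1 array per mouse. The arrays were taken by genotype and challenge as the labels give them. The other 15 arrays are 5 naive wild-type mice, 5 wild-type Th17 recipients and 5 wild-type Th1 recipients. Every recipient was irradiated with 500 rad and 4 h later received the same stated number of T cells. These cells were specific for a peptide of myelin oligodendrocyte glycoprotein (MOG, residues 35 to 55). For the Th17 groups these cells had been cultured for 5 days with 25 μg/ml of the peptide and 20 ng/ml IL-23, and the genotype of their donors is not given in the sources used here. For the Th1 group the culture held the same peptide dose, 20 ng/ml IL-12 and an antibody to IL-23. Naive mice received neither radiation nor cells, so within the KO genotype the transferred cells, the radiation and the handling cannot be told apart. The methods describe female, age-matched littermates, but the sources used here do not describe the KO allele of these mice. The sample labels place collection at the onset of symptoms and the design text at the peak of disease. No score of symptoms per mouse was analysed here.

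Experimental autoimmune encephalomyelitis (EAE) is a mouse disease in which myelin-specific T cells enter the spinal cord, recruit monocytes and neutrophils, and damage myelin. Th17 cells secrete IL-17, and Act1, the product of Traf3ip2, is the adaptor that joins the IL-17 receptor to NF-κB and MAP kinase signalling in the responding cell. Known products of that pathway include the neutrophil chemokine Cxcl1 and the neutrophil attractants and antimicrobial proteins S100a8, S100a9 and Lcn2. The comparison asks how the KO spinal cord responded to a transfer that causes EAE in wild-type mice.

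Traf3ip2 read 5.67, 5.59, 5.83 and 5.67 in KO recipients 1 to 4 and 5.38, 5.70, 5.39, 5.43 and 5.92 in naive KO mice 1 to 5, on the log2 scale of RMA, the authors' background correction and normalization. These readings lay above the naive wild-type mean of 4.29 ± 0.20 (SD, n = 5), so the probe set for Traf3ip2 cannot check the KO label. Same-group KO arrays correlated at 0.986 to 0.997 over 17097 genes, and KO arrays of different groups at 0.982 to 0.995. No pair of KO arrays held the same values (smallest mean absolute difference 0.148). Across all 24 arrays the second principal component, with 3.28% of the variance, followed a letter in the sample titles that was read here as the row of a plate (both taken as deviations from group means, Pearson r = 0.83 and Spearman rho = 0.79, permutation p = 2e-05 for each and 4e-05 after adjustment over 2 relations, n = 24, r = 0.77 without the 2 arrays farthest from the median in row). This permutation p is the smallest that 100000 draws can give. Naive KO mouse 4 (row H, 30.0) and KO recipient 2 (row A, -19.6) lay at the ends of that component. Naive KO mouse 3, also in row H, lay at -3.17, so arrays of the same row and group could lie far apart. No plate row held both KO groups, so rows could be separated from the groups only through the wild-type arrays. Spinal cord markers were bright, and neuronal genes averaged 9.69 to 9.73 and myelin genes 9.89 to 10.12 in KO recipients.

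The bases before the start of 2 IL-17 target genes, the chemokine Cxcl1 and the metalloreductase Steap4, are shown because both genes rose in wild-type recipients and had no call in KO recipients, with values given further on. Both are the 250 bases before the annotated start in RefSeq on GRCm38.p6, plus strand, at chr5:90890995-90891244 for Cxcl1 and chr5:7960222-7960471 for Steap4. Capitals mark matches on either strand to the 10-base NF-κB consensus and to TGGGAA, the core of the site of RBP-J, the DNA-binding partner of NOTCH. Of 32851 RefSeq promoter windows of this length, 7.25% held the NF-κB consensus and 21.6% held TGGGAA. The Cxcl1 window held overlapping NF-κB matches on both strands between 71 and 61 bases before the start. The Steap4 window held NF-κB matches between 250 and 241 bases (both strands) and between 226 and 217 bases before the start, and TGGGAA on the minus strand between 132 and 127 bases. A match is a description of the letters and not a site of binding.
Cxcl1: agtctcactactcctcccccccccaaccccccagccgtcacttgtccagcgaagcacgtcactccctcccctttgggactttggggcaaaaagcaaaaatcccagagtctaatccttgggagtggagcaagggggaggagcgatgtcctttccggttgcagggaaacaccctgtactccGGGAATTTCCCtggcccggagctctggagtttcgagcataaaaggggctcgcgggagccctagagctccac
Steap4: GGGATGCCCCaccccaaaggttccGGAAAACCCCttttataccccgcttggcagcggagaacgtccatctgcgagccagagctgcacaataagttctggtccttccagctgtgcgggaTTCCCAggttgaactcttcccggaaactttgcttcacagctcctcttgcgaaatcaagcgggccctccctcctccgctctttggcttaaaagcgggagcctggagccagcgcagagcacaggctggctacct

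In the KO cord no gene of 17097 was called between Th17 recipients and naive mice (limma, adjusted p under 0.05, 0% called). The smallest adjusted p was 0.0704. An unadjusted p under 0.05 was reached by 1070 genes (6.26%), 576 higher (3.37%) and 494 lower (2.89%) in recipients. The variance in this fit was shared by all 5 groups. Limma on the 9 KO arrays alone also called 0 genes (smallest adjusted p 0.487, 722 genes at an unadjusted p under 0.05). The test named in the methods, run gene by gene without shared variance, called 0 genes too, with 707 at an unadjusted p under 0.05. An exact Mann-Whitney test gave 521 such genes and 0 calls. Its p cannot fall below 0.0159 with 4 against 5 arrays, so its 0 after adjustment over 17097 genes was nearly fixed in advance. The groups did not overlap for 139 genes with recipients higher (0.813%) and 117 with recipients lower (0.684%). The median log2 difference was -0.00, and the 1% and 99% quantiles were -0.33 and 0.39. Differences beyond 2-fold were read for 3 genes, Rpgrip1, Gdpd3 and Sgk1, all higher in recipients. The count of 0 turned on single mice, since leaving out KO recipient 2 gave 7 called genes (Ak4, C4b, Fmod, Lgals3, Rpgrip1, Slc26a11 and Tmem98), naive KO mouse 4 gave 2 (C4b and Gng4), and KO recipient 3, KO recipient 4, naive KO mouse 2 and naive KO mouse 5 gave 1 each (Rbm45, Gkn3, S100a6 and Rpgrip1).

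The intervals set bounds on what this comparison could have missed. The 95% interval of the log2 difference lay within 2-fold in both directions (between -1 and 1) for 17040 genes (99.7%) and within 1.41-fold (between -0.5 and 0.5) for 15133 (88.5%). Among the 10407 genes whose mean over the KO arrays reached the array median of 3.52, these shares were 99.5% and 83.8%. With intervals widened to hold for all 17097 genes at once (Bonferroni), 13745 (80.4%) stayed within 2-fold and 681 (3.98%) within 1.41-fold. The median standard error was 0.11 and the median half-width of the 95% interval 0.23. For the 6690 dimmer genes the interval bounds the array reading, which is compressed near background.

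In the wild-type cord the same contrast called 7436 genes (43.5%), 3069 higher (18.0%) and 4367 lower (25.5%). That split depends on the scale, because the wild-type median of all genes moved from -0.05 to -0.31 with arrays centred on their medians and to -0.51 with arrays centred on ribosomal protein genes, and the share of higher calls from 41.3% to 15.9% and 10.7%. The KO median moved by less than 0.1 under both. The test of the difference itself, the KO response minus the wild-type response, called 5479 genes (32.0%). In 5338 of them the KO difference was the smaller in size and in 141 the larger. Of the 1649 genes called and changed at least 2-fold in wild type, 1641 were called for the genotype difference and 1633 had a KO interval within 2-fold. Their median was 2.07 in wild type against 0.01 in KO for the 1251 that rose, and -1.15 against 0.01 for the 398 that fell. The end of the KO interval that points the wild-type way came to a median of 16.0% of the wild-type log2 change, and stayed under 50% of it for 1600 of the 1649 genes and under 25% for 1170. A KO difference with the wild-type sign was read for 864 of them. The 1649 genes were chosen on wild-type arrays that also enter the genotype difference, so the count of 1641 was largely set by that choice. The same choice can make wild-type changes read too large, and the percentages of them too small. Over all genes the KO and wild-type differences, which share no arrays, correlated at r = 0.05 and rho = 0.06, given as a description since genes are not independent.

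**Figure D1:**
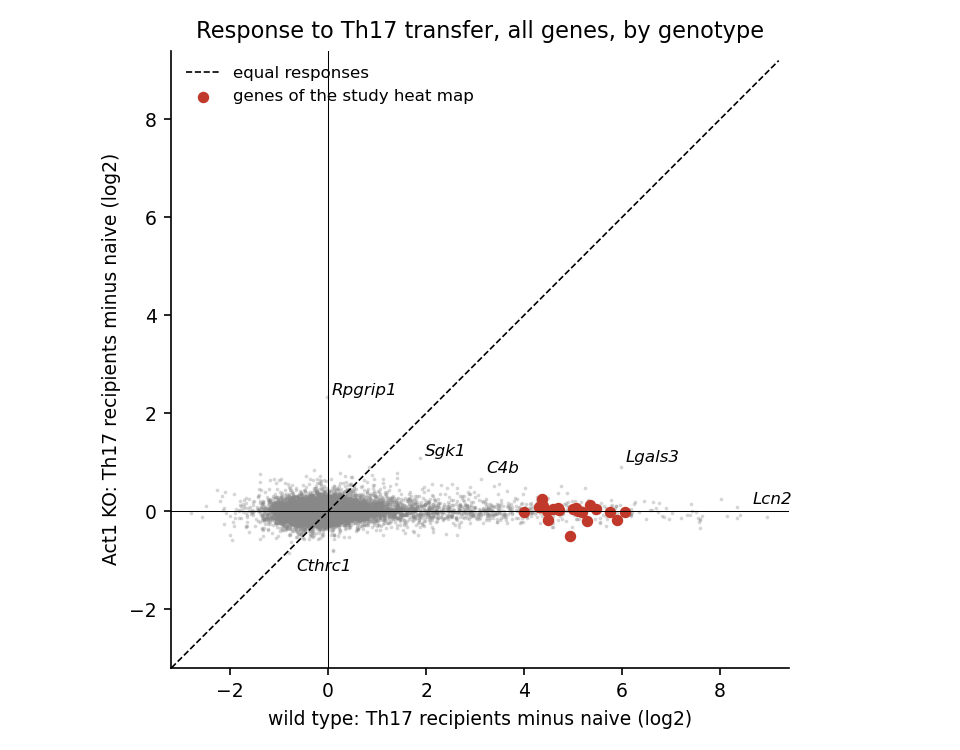
Log2 difference between Th17 recipients and naive mice in wild type (x axis) and Act1 KO (y axis) for 17097 genes, with the dashed line at equal responses and genes of the study heat map in red. The cloud is flat: wild-type differences reach 8.97 for Lcn2, whose KO difference was -0.11, while KO differences other than those of Rpgrip1, Gdpd3 and Sgk1 stay within 1.

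Placed along the wild-type response (projection on the wild-type differences of the 7436 called genes, naive wild-type mean at 0% and Th17 wild-type mean at 100%), the 4 KO recipients scored 1.75%, 1.58%, 1.56% and 1.50%. The 5 naive KO mice scored 0.37%, -0.32%, -0.50%, 2.97% and 1.76%. All 4 recipients lay inside the naive KO range. The wild-type Th17 recipients, which define the scale, scored 97.1% to 104%, and the wild-type Th1 recipients 85.3% to 97.2%.

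**Figure D2:**
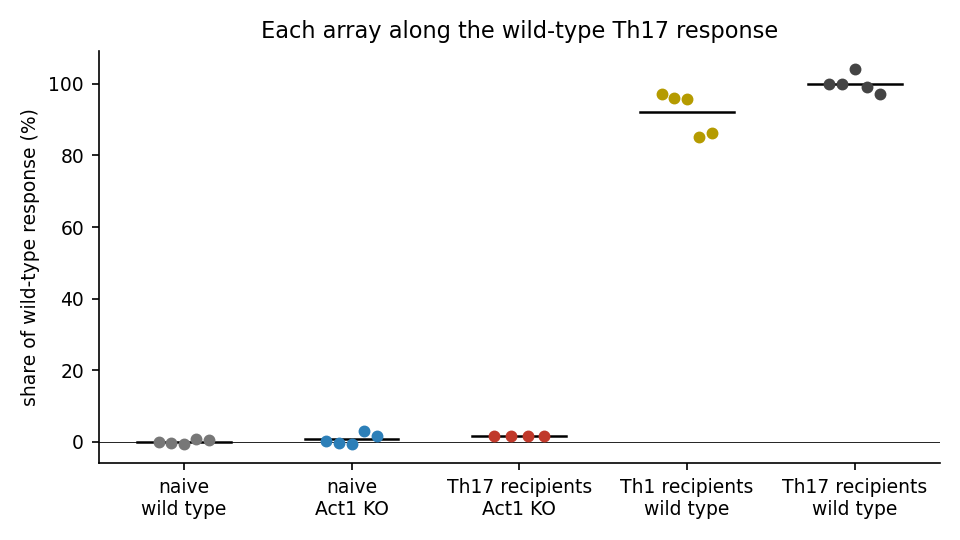
Share of the wild-type Th17 response on each array, in percent, by group, with a line at the group mean. The KO recipients (1.50% to 1.75%) sit among the naive arrays, far from the wild-type recipients of either cell type.

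The 10 genes that rose most in wild type had group means of 2.65 to 3.61 in KO, near or below the array median. Readings there are compressed, so the order of these differences was not read. Lcn2 read 2.70, 2.44, 2.65 and 2.80 in KO recipients and 2.53, 2.48, 2.95, 2.82 and 3.01 in naive KO mice, against a wild-type difference of 8.97. The groups overlapped, and the KO difference was -0.11 (95% interval -0.43 to 0.21). Arg1, the arginase of alternatively activated macrophages, differed by 0.08 (-0.26 to 0.43) in KO and by 8.36 in wild type. The chitinase-like macrophage products Chil3 and Chil4 differed by -0.14 (-0.51 to 0.22) and -0.09 (-0.49 to 0.32) in KO, against 8.35 and 8.40 in wild type. The MHC class II chain H2-Aa differed by -0.09 (-0.41 to 0.22) against 7.64, and the acute-phase protein Saa3 by -0.15 (-0.64 to 0.34) against 7.59. The interferon-inducible GTPases Iigp1, Tgtp1, Ifi47 and Gbp10 had wild-type differences of 8.14, 8.02, 7.59 and 7.58. Their KO differences were -0.11, 0.26, -0.18 and -0.35, and that of Gbp10 reached an interval of -0.60 to -0.10 toward lower readings in recipients, with a limma adjusted p of 0.52.

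The 10 genes that fell most in wild type read above the array median in KO cords, with group means from 4.41 upward, so that a fall could be read. Bcan, a proteoglycan of astrocytes and oligodendrocyte precursors, read 7.91, 7.51, 7.83 and 7.72 in recipients and 7.68, 7.76, 7.80, 7.80 and 7.86 in naive mice. The KO groups overlapped (difference -0.04, 95% interval -0.44 to 0.36), against -2.81 in wild type. Chodl, a marker of fast motor neurons, differed by -0.12 (-0.67 to 0.43) against -2.58. Itih3 differed by 0.03 (-0.35 to 0.40), Entpd2, an ATP-hydrolysing ectoenzyme of astrocytes, by 0.06 (-0.27 to 0.38), and Serpinb1a by 0.10 (-0.23 to 0.44), against -2.15, -2.12 and -2.50 in wild type. Car3 differed by -0.26 (-0.71 to 0.18) against -2.12. The remaining 4 genes read higher in KO recipients without a call. They were Npb (0.43, -0.03 to 0.89), the clock output factor Dbp (0.39, -0.03 to 0.80), the cell cycle inhibitor Cdkn1c (0.31, -0.01 to 0.64) and Tlcd1 (0.21, -0.10 to 0.53), with wild-type differences of -2.27, -2.12, -2.18 and -2.22. Dbp was 7.63 to 7.74 in recipients and 7.0 to 7.47 in naive mice, without overlap.

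The heat map of the study holds 21 genes picked on these same arrays for induction by Th17 cells, so neither their wild-type rise nor their genotype difference is independent evidence. In KO none of the 21 was called, 0 reached an unadjusted p under 0.05 (6.26% of all genes did), and the median was 0.02 beside -0.00 over all genes. All 21 were called for the genotype difference, with KO the lower. Of the 21, 17 read below the array median in KO. Cxcl1 read 3.20, 3.13, 3.11 and 2.94 in KO recipients and 3.02, 3.04, 3.14, 3.19 and 3.14 in naive KO mice. The groups overlapped fully (difference -0.01, 95% interval -0.34 to 0.32), against 3.99 in wild type, so that the upper end of the interval was 1.24-fold. Steap4 read 2.77, 2.81, 2.92 and 2.76 in recipients and 2.81, 2.83, 2.81, 2.89 and 2.88 in naive mice (difference -0.03, -0.60 to 0.55, wild type 6.06). The iron oxidase Cp (-0.01, -0.33 to 0.31), the monocyte chemokine Ccl7 (-0.03, -0.35 to 0.30), the pattern receptor Ptx3 (0.07, -0.31 to 0.44) and the cytokine signalling inhibitor Socs3 (0.02, -0.28 to 0.32) had no call either, with wild-type differences of 5.76, 5.18, 5.05 and 4.70.

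The remaining heat map genes differed in KO by between -0.51 and 0.25. The cytokine Il1b (0.11), its antagonist Il1rn (0.05), the cholesterol hydroxylase Ch25h (0.01), the transglutaminase Tgm1 (0.04), Ecm1 (0.13), Lrg1 (0.08), Angptl4 (0.06), Chil1 (0.03), the collagen Col3a1 (0.09), Sprr1a (-0.18) and the neutrophil collagenase Mmp8 (-0.01) had intervals within 2-fold. Slfn4 (-0.19, -1.08 to 0.71) and S100a9 (-0.51, -1.32 to 0.29) did not. The error estimate behind these intervals is shared by all 5 groups, the wild-type recipients included. S100a9 itself read 3.12, 2.89, 3.18 and 3.10 in KO recipients and 3.41, 3.73, 4.00, 3.34 and 3.45 in naive KO mice. Every recipient was below every naive mouse, without a call (limma adjusted p = 0.91). Its partner S100a8 read 2.81 to 3.13 in recipients and 3.10 to 3.41 in naive mice, and Adam8 differed by 0.25 (-0.39 to 0.88).

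**Figure D3:**
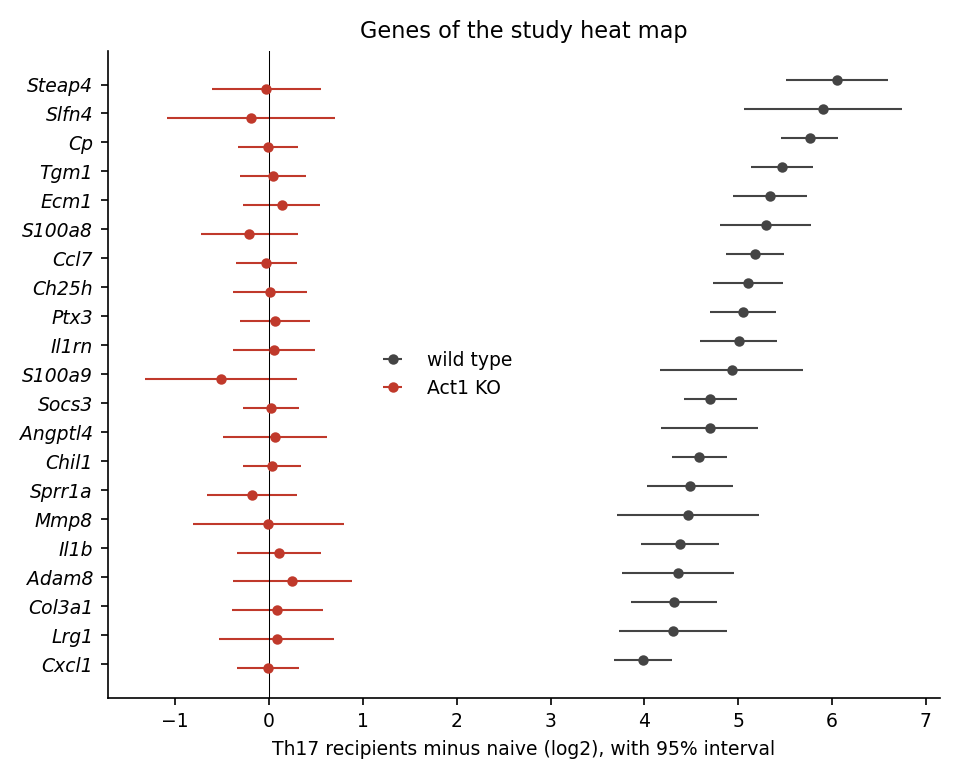
Log2 difference between Th17 recipients and naive mice, with limma 95% intervals, for the 21 genes of the study heat map in wild type (dark) and Act1 KO (red). Every wild-type interval lies above every KO interval, and the KO intervals of Slfn4, S100a9 and Mmp8 are the widest of the 21.

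In wild type 18.0% of all genes were called higher and 25.5% lower, and these shares stand behind the wild-type counts of each list below. They depend on the scale, as given above. Of the IL-17 receptor and its proximal signalling genes, 19 of 21 listed were measured and none was called in KO (median 0.09, all intervals within 2-fold), while 16 rose and 1 fell in wild type. An unadjusted p under 0.05 was read for 2 of the 19, both higher (3.37% of all genes were), the transcription factors Cebpd and Cebpb, which many inflammatory and hormonal signals induce. Cebpd read 4.26, 4.61, 4.62 and 4.88 in KO recipients and 3.80, 4.21, 4.32, 4.03 and 3.99 in naive mice, with recipient 1 inside the naive range (difference 0.52, 95% interval 0.25 to 0.79). Cebpb read 5.37, 5.05, 5.34 and 5.16 against 4.80, 4.56, 4.94, 5.00 and 4.49, without overlap (0.47, 0.11 to 0.83). The wild-type differences were 4.76 and 4.01. Among the 20 IL-17 target genes, Cebpd was the only one with an unadjusted p under 0.05, the median was -0.02, and 18 of the 20 read below the array median in KO. In wild type 16 of the 20 rose.

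Markers of infiltrating cells read at or near background in KO recipients. Fewer cells of a type and less RNA per cell cannot be told apart in whole tissue. Of 16 T cell markers measured, 15 read below the array median, none was called, and the mean of the list was 3.40 to 3.53 in recipients and 3.32 to 3.53 in naive mice. The median KO difference was -0.03, against 2.02 in wild type, where 15 rose. Cd4, the co-receptor of helper T cells that myeloid cells also carry at low levels, read 3.58, 3.54, 4.09 and 3.39 in recipients and 3.10, 3.21, 3.24, 3.31 and 2.97 in naive mice. The groups did not overlap (0.48, 95% interval 0.17 to 0.79, wild type 2.90), which was 1 of 16 markers beside 0.813% of all genes, and a second, dimmer probe set of Cd4 differed by 0.16. Cd3e, part of the T cell receptor complex, read 3.25 to 3.70 in recipients and 3.01 to 3.44 in naive mice (0.24, -0.03 to 0.51).

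Of 23 monocyte and macrophage markers none was called and all intervals lay within 2-fold (median -0.03, wild type 5.24 with 20 called higher). Lyz2, the lysozyme of these cells, read 3.59, 3.28, 3.66 and 3.30 in KO recipients and 3.70, 3.36, 3.73, 3.94 and 4.04 in naive mice, with overlap (-0.30, 95% interval -0.61 to 0.01, wild type 5.67). The 15 neutrophil markers had a median of -0.10 (wild type 1.16), and their mean was 2.96 to 3.00 in recipients and 3.04 to 3.19 in naive mice, without overlap and toward lower readings in recipients. None of the 10 B cell and plasma cell markers and none of the 11 cytotoxic and NK cell markers was called in KO, and all 21 read below the array median. The intervals of the granzymes Gzma (-1.29 to 1.10) and Gzmb (-1.24 to 1.22) left the 2-fold bounds. Cell cycle genes, which dividing leukocytes and glia share, had a KO median of -0.05 and 0 of 27 called, against a wild-type median of 1.40 with 27 of 27 called higher. The mitotic kinase Aurka differed by 0.35 (-0.01 to 0.71) in KO.

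Of 22 IFN-γ-induced genes none was called in KO (median -0.08) and all 22 rose in wild type (median 5.81). An unadjusted p under 0.05 was read for 3 of them, all toward lower readings in recipients (2.89% of all genes). The transcription factor Irf1 read 3.94, 4.25, 4.25 and 4.07 in recipients and 4.45, 4.49, 4.30, 4.83 and 4.21 in naive mice, with overlap (-0.33, 95% interval -0.61 to -0.04), and Irf8 differed by -0.33 (-0.63 to -0.04), while a dimmer probe set of Irf8 differed by 0.30. The 20 type I interferon genes had a KO median of 0.02 and a wild-type median of 4.18. Of these, Ifit3 differed by 0.38 (0.10 to 0.65) and Irf9, a subunit of the interferon-stimulated transcription factor, by 0.35 (0.12 to 0.58), both toward higher readings. Naive KO mouse 5, at 5.14, was above every recipient for Irf9. The MHC class I list (10 of 16 measured) had a KO median of 0.03 and the 23 chemokines -0.01, with 10 of 10 and 20 of 23 called higher in wild type. Of 19 inflammatory cytokines measured none was called in KO (median -0.05). Lymphotoxin β (Ltb) read 3.61, 3.23, 3.44 and 3.44 in recipients and 3.22, 2.81, 2.99, 3.21 and 3.05 in naive mice, with recipient 2 just above the highest naive mouse (0.37, 0.07 to 0.67).

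Glial genes had no call in KO. The 13 pan-reactive astrocyte genes had a median of -0.01 (wild type 4.02, 13 of 13 called higher), the 10 A1 genes 0.03 (wild type 4.87) and the 12 A2 genes 0.03 (wild type 1.46). Vimentin (Vim), an intermediate filament of reactive astrocytes, read 9.01, 9.06, 8.85 and 9.14 in recipients and 8.60, 8.95, 8.55, 8.37 and 8.99 in naive mice, with overlap (0.32, 95% interval 0.11 to 0.54, wild type 3.06). All 15 homeostatic astrocyte genes had intervals within 1.41-fold, and their mean lay between 9.02 and 9.08 in all 9 KO arrays. Of the 16 homeostatic microglia genes 5 had an unadjusted p under 0.05, 2 higher and 3 lower (3.37% and 2.89% of all genes), and the median was -0.01. P2ry13, a purine receptor of resting microglia, read 4.88, 5.18, 5.11 and 4.80 in recipients and 5.44, 5.43, 5.46, 5.44 and 5.35 in naive mice, without overlap (-0.43, -0.64 to -0.22). Fcrls differed by -0.47 (-0.84 to -0.09), and Mertk, a receptor for apoptotic cells, by 0.43 (0.12 to 0.75).

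Myelin and oligodendrocyte genes, of which 15 of 17 fell in wild type (median -0.70), had a KO median of 0.09, and the lowest end of any of their intervals was -0.30. Myelin basic protein (Mbp) read 13.15 to 13.21 in recipients and 12.85 to 13.10 in naive mice, without overlap (0.22, 95% interval 0.04 to 0.39), but a second Mbp probe set at a mean of 12.91 differed by 0.07. Mog differed by 0.29 (-0.01 to 0.58). The 13 oligodendrocyte precursor genes had a KO median of -0.06 against -0.69 in wild type. Their lineage factor Olig2 differed by -0.34 (-0.67 to -0.00) in KO and -0.68 in wild type, a genotype difference that was not called (limma adjusted p = 0.28). NOTCH receptors, ligands and processing genes had a KO median of 0.04 over 20 genes. The 13 canonical NOTCH targets had a KO median of -0.01, with the target factors Heyl (-0.34, -0.64 to -0.05) and Hes5 (-0.23, -0.44 to -0.03) at the lower end. Heyl read 3.55, 3.66, 3.41 and 3.37 in recipients and 4.25, 3.94, 3.93, 3.88 and 3.22 in naive mice, with naive mouse 5 below every recipient. Cholesterol synthesis genes, all 15 of which fell in wild type (median -1.05), had a KO median of 0.10.

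Neuronal genes differed in KO by a median of 0.01 with every interval of the 17 within 1.41-fold. In wild type their median was -0.74, with 16 called lower (25.5% of all genes were). The neuronal splicing factor Rbfox3 differed by -0.21 (95% interval -0.40 to -0.01), and its other, dimmer probe sets by 0.15 and -0.02. The 9 motor neuron genes measured all read lower in KO recipients (median -0.15, from -0.43 to -0.03), and 3 of the 9 had an unadjusted p under 0.05 (2.89% of all genes did in that direction). In wild type the median of these 9 genes was -0.70, with 7 called lower (25.5% of all genes were). The genotype difference was called for 5 of the 9, each with the KO fall the smaller (32.0% of all genes were called). The KO values of the 9 genes were as follows. Their mean was 5.37 to 5.60 in recipients and 5.39 to 5.83 in naive mice, with overlap. The list median was -0.26 without recipient 2, -0.24 without naive mouse 4 and -0.33 with array weights. Ahnak2 read 8.07, 7.92, 8.11 and 7.87 in recipients and 8.22, 8.28, 8.38, 8.59 and 8.65 in naive mice, without overlap (-0.43, -0.69 to -0.18, wild type -0.52). Peripherin (Prph), an intermediate filament of motor neurons, differed by -0.27 (-0.48 to -0.06). Among 16 nerve injury genes the median was 0.01, with 2 genes at an unadjusted p under 0.05 toward higher and 1 toward lower readings. The neuropeptides Gal and Npy differed by 0.43 (0.14 to 0.73) and 0.30 (0.09 to 0.52), and the growth arrest gene Gadd45a by -0.39 (-0.74 to -0.04).

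None of the vascular, meningeal or ependymal genes was called in KO. The median was 0.16 for 16 endothelial genes, 0.12 for 9 pericyte and smooth muscle genes, 0.11 for 14 fibroblast and meningeal genes and 0.21 for 9 ependymal genes. The mean of the ependymal list was 4.98 to 5.01 in recipients and 4.69 to 4.95 in naive mice, without overlap. That of the fibroblast list was 4.14 to 4.60 and 3.97 to 4.22, with overlap. Acta2, smooth muscle actin, read 6.20, 6.24, 5.41 and 5.65 in recipients and 5.83, 5.50, 4.89, 4.88 and 5.11 in naive mice (0.63, 95% interval 0.11 to 1.16). The glucose transporter Slc2a1 differed by 0.30 (0.08 to 0.51), the matrix proteins Mgp by 0.50 (0.11 to 0.88) and Fn1 by 0.46 (0.07 to 0.85), the collagen Col1a1, the lowest of its list, by -0.32 (-0.97 to 0.34), and the ciliary dynein Dnah11 by 0.30 (0.11 to 0.48). How much meninges or vessel came with each dissected cord was not measured, and its part in these values was not tested. Schwann cell, erythroid, platelet, skeletal muscle and adipocyte lists had KO medians of 0.04, -0.04, -0.05, -0.03 and -0.01, with no call.

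**Figure D4:**
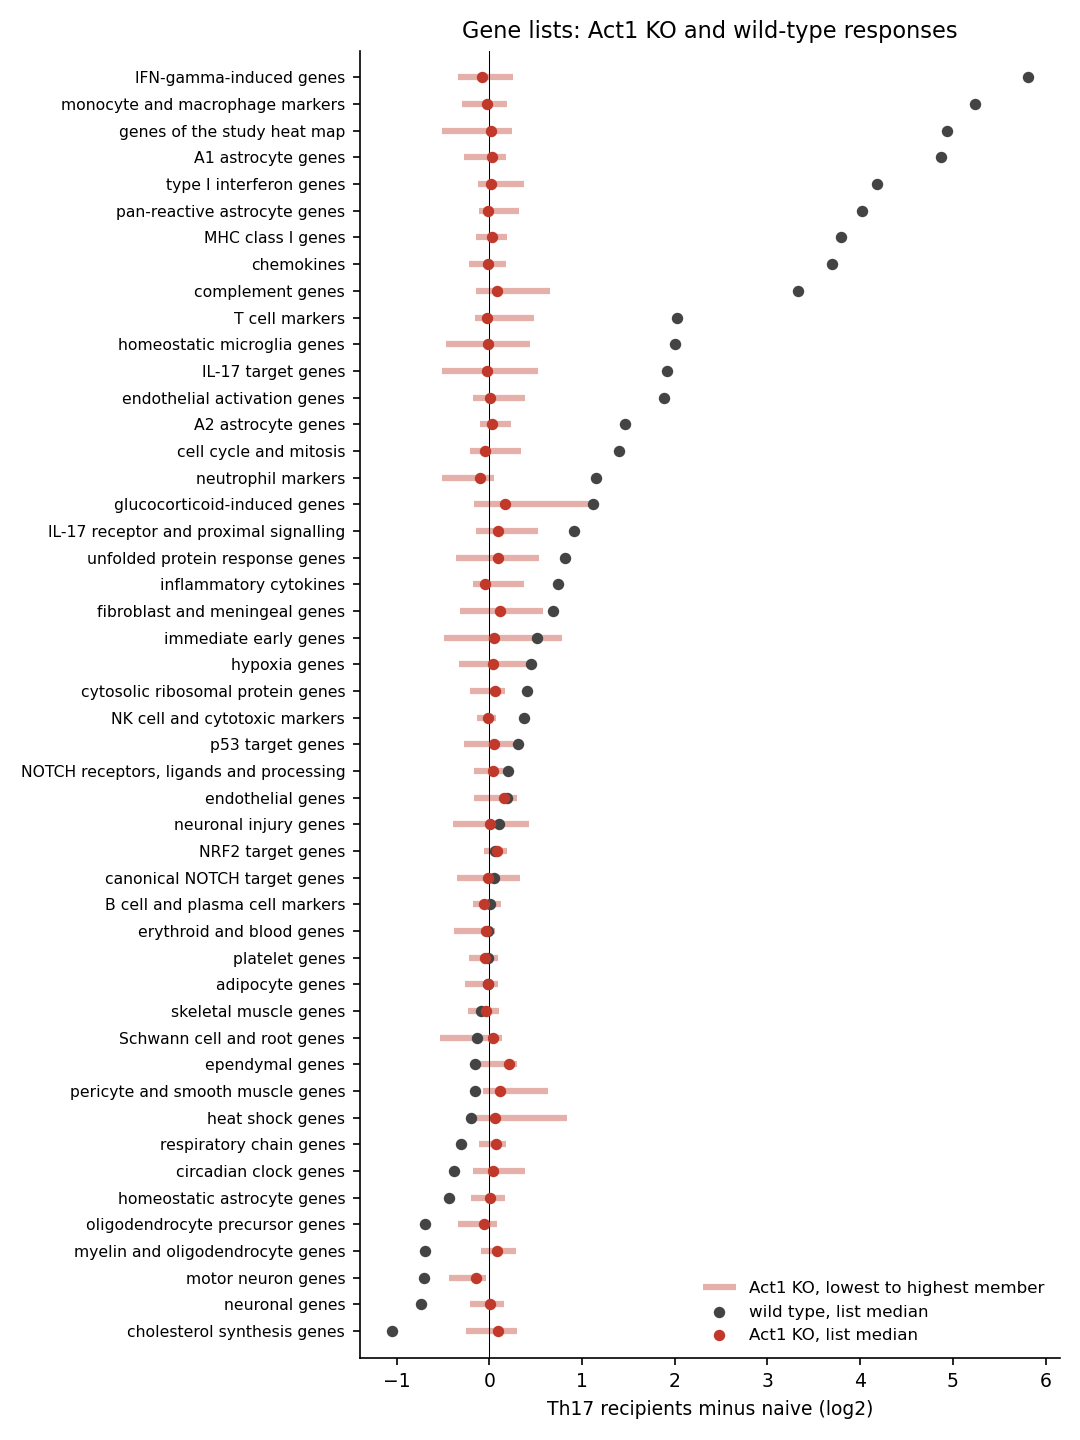
Median log2 difference between Th17 recipients and naive mice for 48 gene lists in wild type (dark points) and Act1 KO (red points), with bars from the lowest to the highest KO member. KO medians lie between -0.15 (motor neuron genes) and 0.21 (ependymal genes), while wild-type medians run from -1.05 (cholesterol synthesis genes) to 5.81 (IFN-γ-induced genes).

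Because only recipients were irradiated, p53 target genes were examined. Of 23 measured none was called in KO, the median was 0.06 and the highest upper bound was 0.58. The p53 inhibitor Mdm2 read 7.45, 7.20, 7.40 and 7.29 in recipients and 7.29, 6.95, 7.24, 7.16 and 7.18 in naive mice, with overlap (0.17, 95% interval -0.01 to 0.35), and another probe set of Mdm2 differed by -0.12. Perp differed by 0.25 (0.04 to 0.46), and Cd80 by -0.27 (-0.55 to -0.00). In wild-type recipients, irradiated in the same way, 11 of the 23 were called higher and 3 lower (18.0% and 25.5% of all genes). Cords were collected days after the irradiation, and an earlier p53 response was not tested.

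Glucocorticoid-induced genes, which stress hormones raise in many tissues, had a KO median of 0.17 over 15 genes, no call, and 4 with an unadjusted p under 0.05, all higher (3.37% of all genes were). The mean of the list was 6.84 to 7.45 in recipients and 6.60 to 6.78 in naive mice, without overlap. Leaving out recipient 4 brought the list median to 0.03, and leaving out other single mice to between 0.15 and 0.27, while the fit with plate row as a block gave 0.47. Sgk1, a kinase that glucocorticoids induce, read 8.52, 8.96, 8.33 and 10.16 in recipients and 7.30, 8.15, 8.34, 7.79 and 7.94 in naive mice. Recipient 4 was the highest, recipient 3 lay inside the naive range, and the difference was 1.08 (95% interval 0.40 to 1.77), not called by limma. The transcription factor Zbtb16 read 6.85, 6.64, 6.44 and 7.35 against 6.36, 6.58, 5.84, 5.44 and 5.40, with overlap (0.90, 0.31 to 1.48), and another, dimmer probe set of Zbtb16 differed by 0.07. Pdk4, which restrains glucose oxidation, read 5.01, 5.02, 5.34 and 5.42 against 4.75, 4.59, 4.47, 4.80 and 3.94, without overlap (0.68, 0.23 to 1.14). In wild type the differences were 1.87, 0.83 and 1.41, and the genotype difference was not called for any of the 3 (limma adjusted p = 0.219, 0.938 and 0.0686). These 3 do not stand for the list, whose wild-type median was 1.12 with 12 of 15 called higher (18.0% of all genes were). The genotype difference was called for 7 of the 15 with the KO response lower and 1 with it higher (32.0% of all genes in either direction). Klf15, a glucocorticoid-responsive factor picked after its values were seen, differed by 0.55 (0.25 to 0.86) in KO and 0.44 in wild type.

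Of 17 immediate early genes, which respond to stimuli within minutes, 4 had groups without overlap and recipients higher, beside 0.813% of all genes, and the median was 0.06. In wild type the list median was 0.52, with 11 called higher and 1 lower (18.0% and 25.5% of all genes). The genotype difference was called for 7 of the 17 with the KO response lower and 1 with it higher (32.0% of all genes in either direction). Egr1 read 7.17, 7.51, 7.35 and 6.97 in recipients and 6.91, 6.54, 6.87, 6.58 and 6.81 in naive mice, without overlap (0.51, 95% interval 0.22 to 0.80, wild type 0.52). Fos differed by 0.55 (0.23 to 0.87) and Klf2 by 0.78 (0.28 to 1.28), while Junb, another immediate early factor and the lowest of the list, differed by -0.49 (-0.82 to -0.16). Klf2 read 5.32, 5.09, 4.88 and 5.04 against 4.60, 4.02, 4.11, 4.22 and 4.56. Among 11 heat shock genes the median was 0.06, and the inducible chaperone Hspa1b read 4.17, 5.89, 3.95 and 4.73 in recipients and 3.97, 4.10, 3.77, 3.67 and 3.74 in naive mice, with recipient 2 far above the rest (0.84, 0.34 to 1.34). Its co-chaperones Dnajb1 (0.56, 0.20 to 0.93) and Hsph1 (0.25, 0.09 to 0.40) read higher too. For Dnajb1 the groups overlapped, and naive mouse 4 read 7.16 against 8.03 to 8.32 in the other naive mice. Of the 11 heat shock genes, 3 had an unadjusted p under 0.05, all higher (3.37% of all genes were). The lowest member of that list differed by -0.17. The cold-inducible RNA-binding proteins Rbm3 and Cirbp, picked after their values were seen, differed by 0.73 (0.36 to 1.09) and 0.57 (0.26 to 0.87), without overlap for either. In wild type Cirbp fell by 0.89 on the log2 scale.

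Of 18 genes of the unfolded protein response 6 had an unadjusted p under 0.05, 5 higher and 1 lower (3.37% and 2.89% of all genes), with a median of 0.09. In wild type the list median was 0.81, with 14 called higher (18.0% of all genes were). The genotype difference was called for 12 of the 18 with the KO response lower and 1 with it higher (32.0% of all genes in either direction). The transcription factor Xbp1 read 8.85, 9.03, 8.87 and 8.99 in recipients and 8.21, 8.47, 8.96, 8.04 and 8.33 in naive mice, with naive mouse 3 inside the recipient range (0.53, 95% interval 0.26 to 0.81), and Creld2 differed by 0.42 (0.15 to 0.70). The chaperone Calr read 10.11, 10.04, 10.21 and 10.27 against 10.51, 10.34, 10.47, 10.54 and 10.71, without overlap and lower in recipients (-0.36, -0.53 to -0.18), while another probe set of Calr differed by -0.14. Clock, hypoxia and NRF2 target genes had KO medians of 0.05, 0.04 and 0.09. Ribosomal protein and respiratory chain genes, which serve as a check of scale, had KO medians of 0.06 and 0.07.

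Of the genes with the smallest p in KO, none was called. Complement C4b, which opsonizes and rises in reactive glia, read 8.16, 7.85, 7.90 and 8.11 in recipients and 7.36, 7.24, 7.12, 7.83 and 7.18 in naive mice. The groups did not overlap, and naive mouse 4 came close to the lowest recipient (difference 0.66 ± 0.12 (SE), 95% interval 0.42 to 0.90, limma adjusted p = 0.0704, exact permutation p = 0.0159, the smallest that splits of 4 against 5 arrays can give). The wild-type difference was 3.13. Of 11 complement genes C4b was the only one with an unadjusted p under 0.05. Smarce1, a subunit of a chromatin remodelling complex, read 7.41, 7.51, 7.52 and 7.54 against 7.08, 7.06, 6.99, 7.07 and 7.13 (0.43 ± 0.08 (SE), limma adjusted p = 0.0704). Its wild-type difference was 0.53 and the genotype difference was not called (limma adjusted p = 0.56), but another probe set of Smarce1, at a mean of 5.89, differed by -0.02 in KO.

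Of the other genes with recipients higher, Narf read 7.11, 7.23, 7.16 and 7.40 against 6.65, 6.40, 6.82, 6.65 and 6.57 (0.61, 95% interval 0.37 to 0.85, wild type -0.05), and a further probe set of Narf differed by 0.44. S100a6, a calcium-binding protein of reactive astrocytes and fibroblasts, read 7.34, 7.51, 7.21 and 7.36 against 6.71, 7.26, 6.72, 6.74 and 6.53 (0.56, 0.34 to 0.79, wild type 3.50). Naive mouse 2 lay inside the recipient range. The splicing kinase Clk1 (0.56), the mitochondrial kinase Ak4 (0.48), the proteoglycan Fmod (0.58), Lrrfip2 (0.41) and Gkn3, a marker of arterial endothelium (0.66), had limma adjusted p between 0.148 and 0.204. Another probe set of Ak4, at a mean of 4.78, differed by 0.29, and its dimmest ones by -0.13 to 0.11. Lgals3, a lectin of activated microglia and macrophages, read 5.47, 4.42, 5.26 and 5.92 against 4.05, 4.19, 4.28, 4.96 and 4.30. Recipient 2 lay inside the naive range, the difference was 0.91 (0.48 to 1.34), and the wild-type difference was 5.97.

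Of the genes with recipients lower, Tmem98, a membrane protein of oligodendrocytes, read 7.64, 7.70, 7.28 and 7.51 against 8.07, 7.91, 8.20, 7.94 and 8.06 (-0.50, 95% interval -0.70 to -0.31, wild type -0.33). Enox1 read 4.76, 4.71, 4.58 and 4.80 against 5.25, 5.15, 5.01, 5.22 and 5.23 (-0.46, -0.65 to -0.27, wild type -0.37). Dhtkd1, a mitochondrial dehydrogenase, read 3.02, 3.24, 3.29 and 3.21 against 3.77, 3.73, 3.83, 3.68 and 3.75 (-0.57, -0.81 to -0.33, wild type -0.40). For these 3 genes the groups did not overlap and the genotype difference was not called (limma adjusted p = 0.37, 0.69 and 0.51). The G protein subunit Gng4 read 7.42, 7.0, 7.02 and 7.11 against 7.87, 7.76, 7.88, 7.42 and 7.58, where recipient 1 met naive mouse 4 (-0.56, -0.79 to -0.33). The DNA glycosylase Neil1 (-0.54), Papss2, which makes the sulfate donor of the cell (-0.39), Gmeb1 (-0.49) and Pnpla3 (-0.49) also had groups without overlap, with limma adjusted p between 0.178 and 0.25. Other, dimmer probe sets differed by -0.10 to -0.03 for Papss2 and by -0.27 to -0.04 for Gmeb1.

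**Figure D5:**
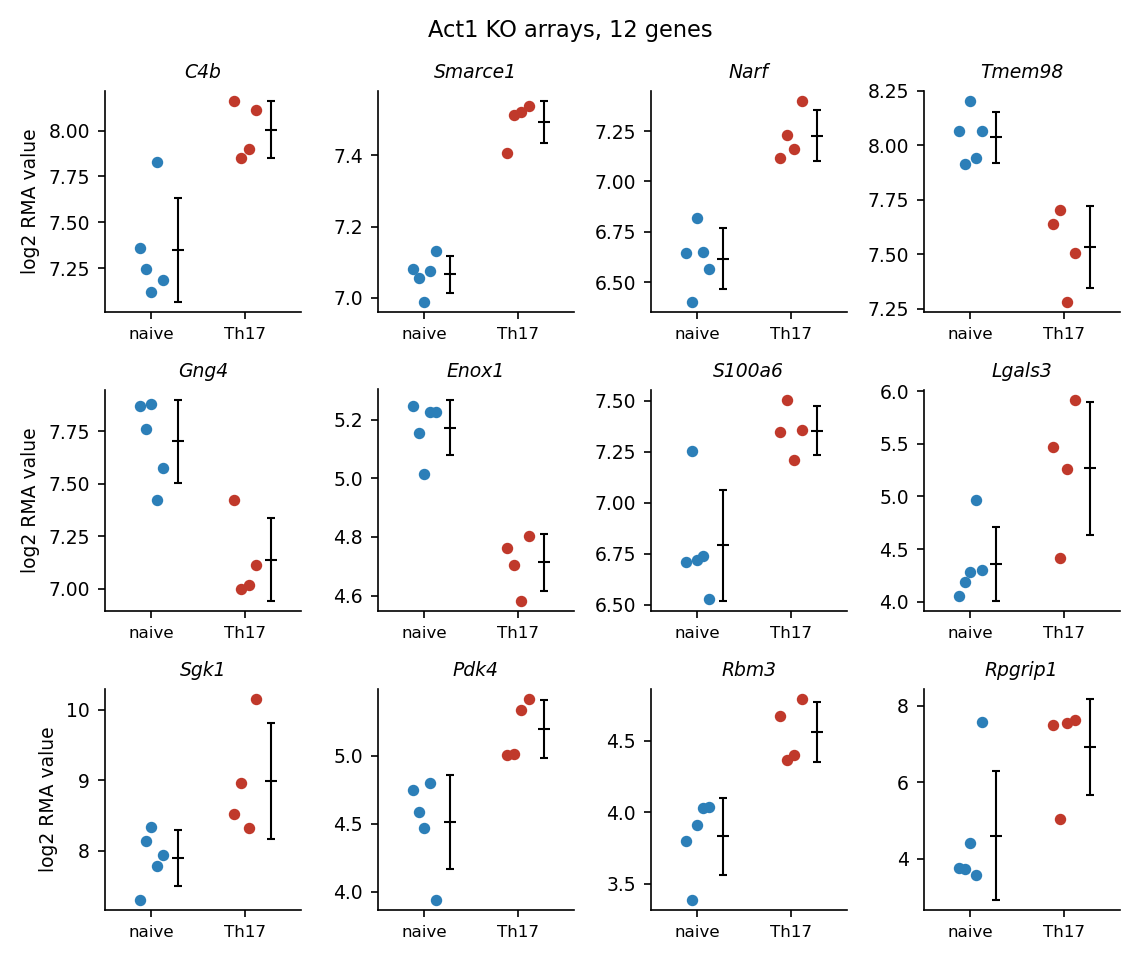
Log2 RMA values of 12 genes in the 5 naive and 4 Th17 recipient Act1 KO mice, 1 point per array, with the group mean and SD beside the points and axes scaled per gene. Smarce1, Narf, Tmem98 and Enox1 separate the groups without overlap by 0.43, 0.61, -0.50 and -0.46, while Rpgrip1 splits into high and low arrays within both groups.

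The 95% interval left the 2-fold bounds for 57 genes. Several were described above, among them Klf2 and Pdk4, whose groups did not overlap. Described here are 4 of the 57 that were chosen after their values were seen, and they do not stand for the rest. Rpgrip1, a protein of photoreceptor cilia, read 7.49, 5.04, 7.56 and 7.63 in recipients and 3.75, 3.74, 4.40, 3.57 and 7.57 in naive mice. Naive mouse 5 read like 3 of the recipients, and recipient 2 stood between (difference 2.32, 95% interval 1.20 to 3.45, limma adjusted p = 0.22). Other probe sets of Rpgrip1 read 2.67 to 3.19 and differed by -0.06 to 0.07. Gdpd3 read 5.92, 5.59, 5.12 and 6.42 in recipients and 6.88, 3.29, 3.25, 6.45 and 3.27 in naive mice, which is again a split inside the naive group (1.13, 0.06 to 2.21). Cthrc1 read 3.19 in recipient 2 and 5.82 to 7.12 on the other 8 KO arrays (-0.86, -1.78 to 0.05), and Erdr1 read 4.88 in recipient 4 and 6.34 to 7.63 on the others (-0.80, -1.94 to 0.33). In each of these 4 genes 1 or more mice stood apart from the rest of their own group.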

How the data were processed

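Spinal cord RNA of 24 mice was hybridized to Affymetrix HT MG-430 PM arrays. The authors deposited log2 values after RMA. No source used here gives the RMA version or says which arrays were processed jointly. Of 45118 probe sets, 28898 had 1 gene symbol in the platform annotation, 551 several and 15669 none listed, and 1 probe set, the brightest on average across the 24 arrays, stood for each of 17097 genes. All 24 arrays were fitted in 1 model of 5 groups (limma 3.58.1 in R 4.3.3, moderated statistics, Benjamini-Hochberg adjustment over all genes, threshold 0.05), with contrasts for the KO response, the wild-type response and their difference. Each array was 1 mouse, array medians were 3.46 to 3.57, and the number of arrays limits the precision. Simulated data of the same KO comparison over 17097 genes had independent normal noise and 200 genes changed at once. In them 60% of genes raised by 0.5 and 98% of those raised by 1 (log2) were called, as were 6 unchanged genes. The adjustment grows stricter with fewer changed genes, so these shares do not give the power behind a count of 0. Genes named in the text were Traf3ip2, up to 10 genes per direction with the smallest p, members of 49 gene lists, the 10 largest wild-type changes per direction and the genes of the study heat map, plus genes chosen after their values were seen (Rpgrip1, Gdpd3, Cthrc1, Erdr1, Rbm3, Cirbp, Klf2, Klf15, Junb, Col1a1, Gzma and Gzmb). The comparison, members and lists were chosen with earlier results of these data known. Correlations between the deviations of same-numbered KO arrays were -0.17, 0.44, -0.20 and -0.05 for pairs 1 to 4. Only pair 2, from plate rows A and B, deviated together, so the numbers were not used to pair mice. Alternatives covered probe set choice, low values, scaling, variance estimation, plate position, other tests and left-out arrays.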

Additional observations from a re-analysis of the deposited data

Results flagged for a closer look

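Of 114 named genes, 86 differed between the genotypes in their response to Th17 transfer (limma, test of the difference, all 24 arrays), with the KO response the smaller in size for 78 and the larger for 8. Over all 17097 genes 5479 (32.0%) were called, with the KO response the smaller for 5338 and the larger for 141. The values that follow are the KO response minus the wild-type response in log2 array readings, listed by gene name. The named genes were chosen partly for their wild-type response and partly for their KO values, and both enter this difference.

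For genes whose KO readings averaged below the array median, where readings are compressed and a difference may be understated, the values were Adam8 (-4.11), Arg1 (-8.27), Aurka (-0.84), Ccl7 (-5.21), Cd3e (-2.31), Cd4 (-2.41), Cd80 (-0.58), Ch25h (-5.10), Chil3 (-8.49), Chil4 (-8.49), Cxcl1 (-4.00), Ecm1 (-5.21), Gbp10 (-7.93) and H2-Aa (-7.74). In that group they were also Ifi47 (-7.77), Iigp1 (-8.25), Il1b (-4.27), Il1rn (-4.95), Lcn2 (-9.08), Lrg1 (-4.23), Ltb (-2.25), Mmp8 (-4.47), Ptx3 (-4.99), S100a8 (-5.50), S100a9 (-5.44), Saa3 (-7.74), Slfn4 (-6.09) and Socs3 (-4.69). And for the rest of these dim genes they were Sprr1a (-4.67), Steap4 (-6.08), Tgm1 (-5.43) and Tgtp1 (-7.77).

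For genes brighter than that in KO, negative values were read for Angptl4 (-4.63), C4b (-2.47), Calr (-1.06), Cebpb (-3.54), Cebpd (-4.24), Chil1 (-4.55), Col3a1 (-4.23), Cp (-5.77), Creld2 (-0.81), Fn1 (-4.79), Fos (-0.83), Gadd45a (-1.37), Ifit3 (-4.31) and Irf1 (-5.31). Further negative values belonged to Irf8 (-4.90), Irf9 (-2.53), Lgals3 (-5.06), Lyz2 (-5.96), Mertk (-1.60), Mgp (-1.47), P2ry13 (-2.19), Papss2 (-0.98), S100a6 (-2.93), Slc2a1 (-0.38), Traf3ip2 (-0.96) and Vim (-2.74).

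Positive values, with the KO response the smaller in size, were read for Bcan (2.77), Car3 (1.86), Cdkn1c (2.49), Chodl (2.46), Cirbp (1.45), Dbp (2.50), Entpd2 (2.18), Gkn3 (1.64), Gng4 (0.84), Heyl (0.97), Hsph1 (0.81), Itih3 (2.17), Mbp (0.83), Mog (1.33), Npb (2.70), Npy (1.13), Prph (0.46), Rbfox3 (0.57), Serpinb1a (2.60) and Tlcd1 (2.43).

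The KO response was the larger in size for Ak4 (0.72), Clk1 (0.71), Dnajb1 (0.74), Gmeb1 (-0.60), Hspa1b (1.12), Lrrfip2 (0.67), Narf (0.66) and Rpgrip1 (2.35), none of which was called in KO on its own. All of them were named for a small KO p or after their values were seen. A large KO response was thus part of the choice, and these calls are not independent evidence of one.

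In 13 of 226 groups of KO arrays looked at, 1 array stood far from the others of its group by Dixon's test, where chance gives about 1 in 20. The array standing apart was KO recipient 2 for Clk1 (highest, 9.69), S100a8 (lowest, 2.81), Irf8 (highest, 4.00) and Rpgrip1 (lowest, 5.04). The array standing apart was naive KO mouse 4 for Lgals3 (highest, 4.96), Mgp (highest, 6.50) and Dnajb1 (lowest, 7.16). The array standing apart was naive KO mouse 5 for Irf9 (highest, 5.14), Slc2a1 (lowest, 8.73), Creld2 (highest, 6.18) and Rpgrip1 (highest, 7.57). The array standing apart was KO recipient 3 for Iigp1 (highest, 3.28). The array standing apart was KO recipient 4 for Npy (highest, 7.45).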

How the results depend on the processing

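The number of genes called in KO, 0 in the report, was 1 with an intensity trend (C4b), 8 with array weights (6 higher, 2 lower: C4b, Fmod, Gng4, Lgals3, Narf, Rpgrip1, Smarce1 and Tmem98), 3 with plate row as a linear term (all higher: C4b, S100a6 and Smarce1), and 0 with plate row or plate column as a block. With the replicate number as a block it was 1 (C4b, adjusted p = 0.0407, 1 higher), a block that these numbers do not bear out as a pairing. Fitting only the 9 KO arrays gave 0 called genes. Leaving out 1 KO mouse at a time gave 0 to 7 called genes, 0 to 5 higher and 0 to 2 lower. Without KO recipient 2 and naive KO mouse 4, a choice made after seeing the data, it was 2 (both higher, C4b and Lgals3). The share of genes with an interval within 2-fold stayed between 97.5% and 99.7% over these settings, and its count was 28812 over every probe set with 1 symbol, 44992 over every probe set (added after seeing the data), 10719 with dim genes left out and 10360 over genes at or above the array median in KO, because different numbers were tested. Wild-type calls numbered 11459 over every probe set with 1 symbol, 15066 over every probe set, 13337 with arrays centred on their medians, 15175 with arrays centred on ribosomal protein genes and 1649 at 2-fold or more. Genotype differences numbered 9104 and 12521 under those 2 centrings and 10332 over every probe set. Of the 86 named genes with a genotype difference, 75 kept its direction and its side of the threshold in every recomputation. The other 11 fell short of the threshold in 1 or more, which were Slc2a1 (19 times), Cd80, Dnajb1, Gmeb1 and Prph (3 each), Aurka and Fos (2 each), and Clk1, Creld2, Gng4 and Rpgrip1 (1 each). The difference of Slc2a1 reversed to 0.0436 with arrays centred on ribosomal protein genes. List medians in KO moved by more than the spread between arrays in 48 recomputations and stayed within it in 1177, and changed sign 96 times over the 49 lists, none of which held a gene called in the comparison as reported. The cause of these shifts was not tested. Signal over background limits the 6690 dim genes, where a transcript near background cannot be followed.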
